A study of Rattus norvegicus with 6 samples.

Results

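Complement is a cascade of secreted proteins that tags surfaces for removal and recruits leukocytes. The classical pathway starts with C1, in which the recognition protein C1q carries the proteases C1r and C1s. C1 inhibitor, the product of Serping1, blocks these proteases. The pathways meet at C3, whose fragment C3a acts on the receptor C3ar1, while C5a acts on C5ar1. Liver makes most circulating complement, macrophages are the main source of C1q, and fibroblasts are known to make C1r and C1s. The genes C1qa, C1qb, C1qc, C1r, C1s, Serping1, C3, C3ar1 and C5ar1 were chosen by name as complement components and receptors, and 8 of these 9 had a probe set that the platform table pairs with a single symbol, among 18166 such genes. C5ar1 had none and was not analysed here.

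These genes were measured on expression arrays of 2 kinds of culture from newborn wild-type Sprague-Dawley rats, with 3 independent isolates and 1 array per isolate of each. NSCPs, precursors of Schwann cells taken from the sciatic nerve, grew on laminin (4 μg/ml) and poly-D-lysine (30 μg/ml). Their medium held 2% N2, 5 μM forskolin and neuregulin-1β at 25 ng/ml. SKPs are skin-derived precursors from back skin, seeded at 50000 cells/ml and grown as spheres with 2% B27, EGF (20 ng/ml) and FGF2 (40 ng/ml). Tissue, medium and growth form differ together between the groups and cannot be told apart, and both cultures are mixed populations after isolation, so fewer cells of a type and less RNA per cell cannot be told apart either. The series title concerns paracrine factors of NSCPs in digit tip regeneration.

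Levels are log2 units, and a value with ± is the mean and SD of a group (n = 3 arrays). Differences are NSCPs minus SKPs in log2 units, each with its standard error (SE) from limma. A gene is called higher or lower when its Benjamini-Hochberg adjusted p over all genes was under 0.05. A group mean at or under 5.32, the 95th percentile of 226 olfactory and vomeronasal receptor genes, is said to be within background. Levels of different genes come from different probes and are not compared. Pearson correlations over genes were 0.984 to 0.993 between arrays of a kind and 0.872 to 0.888 between kinds. The label of NSCPs was met by 10 of 10 measured Schwann lineage markers higher in NSCPs, and 12 of 12 dermal fibroblast markers were lower in NSCPs. In SKPs 15 of 16 macrophage markers were above background as well.

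The complement genes separated into a part that differed and a part that did not pass the test. C1r, C1s, Serping1 and C3ar1 were lower in NSCPs, each by at least 4-fold, while C1qa, C1qb, C1qc and C3 did not pass. Thus 4 of 8 were called lower, against 18.6% of all genes, and 0 of 8 higher, against 25.2%, with limma; at an unadjusted p under 0.05 limma gave 5 lower and 0 higher, and with array weights 1 was higher. Over either direction 43.7% of all genes were called. At least 4-fold lower calls made up 4 of 8 here and 4.56% of all genes. The groups did not overlap in 6 of 8 genes, against 56.6% of all genes, and the median difference was -1.80 against 0.14 over all genes.

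**Figure D1:**
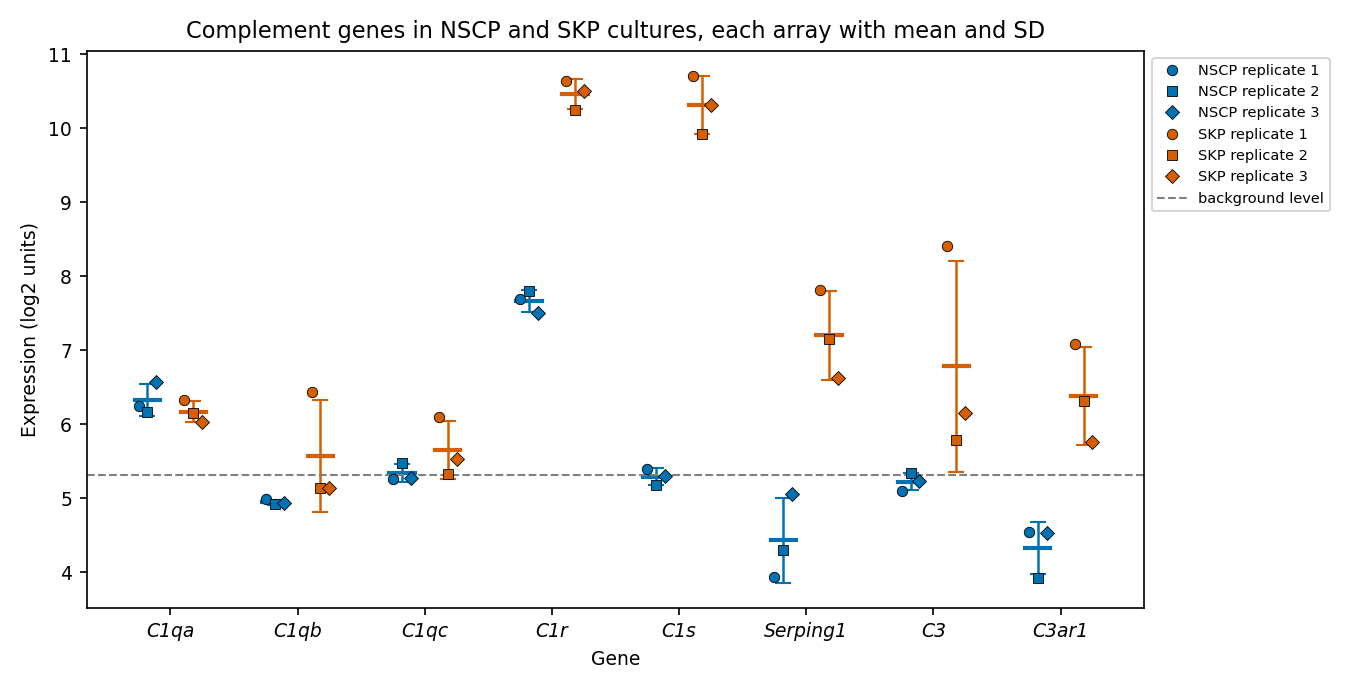
Expression in log2 units (vertical axis) of the 8 measured complement genes, with NSCPs left of SKPs. Points are single arrays with the replicate as the symbol, bars are means with SD (n = 3 each), and the dashed line is the background level of 5.32. C1r and C1s stand apart between the groups, each C1q gene differs little between the groups apart from SKP replicate 1, and SKP replicate 1 is the highest SKP array in all 8 genes.

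The proteases of C1 showed the clearest separation. C1s, which cleaves C4 and C2 once activated, was at 5.40, 5.18 and 5.30 in NSCP replicates 1, 2 and 3, against 10.70, 9.93 and 10.32 in SKP replicates 1, 2 and 3. All NSCP arrays lay far under the lowest SKP array, with no overlap. The means were 5.29 ± 0.11 in NSCPs and 10.32 ± 0.39 in SKPs, so that the difference was -5.02 (SE 0.19, adjusted p = 2.37e-07). The NSCP mean was within background, so the 32.5-fold lower level rests on a background value.

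C1r, which activates C1s, was the only one of the 4 lower genes whose NSCP mean lay above background. It stood at 7.70, 7.80 and 7.50 in NSCPs and at 10.63, 10.24 and 10.51 in SKPs. The arrays of each kind were tight and did not overlap with the other kind. The difference was -2.80 (SE 0.15, adjusted p = 1.29e-06), which is 6.94-fold lower in NSCPs. C1r and C1s are neighbours on chromosome 4 in the RefSeq annotation (assembly GRCr8), and a further gene model, LOC102553847, overlaps C1r, so transcripts of that model could share its probes.

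Serping1, which encodes the serpin that inactivates C1r and C1s, was lower as well. Its values were 3.94, 4.31 and 5.06 in NSCPs and 7.82, 7.15 and 6.63 in SKPs. The arrays ranged over 1.12 log2 units in NSCPs and 1.19 in SKPs, and the highest NSCP array still lay under the lowest SKP array. The difference was -2.77 (SE 0.34, adjusted p = 2.51e-04) with an NSCP mean within background.

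The genes of C1q itself did not pass the test. C1q is built of 3 related chains, A, B and C, whose genes lie side by side on chromosome 5 in the order C1qb, C1qc, C1qa. C1qa was at 6.24, 6.17 and 6.57 in NSCPs and at 6.32, 6.16 and 6.03 in SKPs. The groups overlapped, and the difference of 0.16 had a 95% interval from -0.18 to 0.49 (adjusted p = 0.421). With array weights, which give the arrays unequal influence, it was 0.37 and passed (adjusted p = 0.0296).

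C1qb was at 4.99, 4.92 and 4.93 in NSCPs and at 6.44, 5.13 and 5.13 in SKPs. SKP replicate 1 alone was well above background, and the other SKP arrays lay close to the NSCP arrays, with no overlap between the groups. The difference of -0.63 had a 95% interval from -1.35 to 0.10 (adjusted p = 0.145).

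C1qc had the same shape, at 5.27, 5.48 and 5.28 in NSCPs and 6.09, 5.33 and 5.54 in SKPs, with groups that overlapped. Its NSCP mean of 5.34 lay just above the background level of 5.32. Its difference was -0.31, with a 95% interval from -0.76 to 0.13 (adjusted p = 0.227). Without SKP replicate 1 the differences of C1qb and C1qc shrank to -0.19 (adjusted p = 0.311) and -0.09 (adjusted p = 0.667). No array in the series is known to hold much C1q RNA, so how strongly these probe sets respond was not tested.

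The promoters of C1qa, C1qb and C1r are shown because these 3 windows hold a searched motif and stand for both behaviours, C1q without a call and C1r with one. Each runs from 250 bases before to 50 bases after the start of the gene, 5′ to 3′ on the strand of the gene, from RefSeq on GRCr8. Promoters of 5 of the 9 genes were matched in that table. C1qa is at chr5:154419884-154420183 and C1qb at chr5:154407778-154408077, both on the minus strand, and C1r is at chr4:159098763-159099062 on the plus strand. Capitals mark GAGGAA, the core of sites for the myeloid factor PU.1, or TTCNNNGAA, the pattern of STAT sites, searched on both strands.
C1qa: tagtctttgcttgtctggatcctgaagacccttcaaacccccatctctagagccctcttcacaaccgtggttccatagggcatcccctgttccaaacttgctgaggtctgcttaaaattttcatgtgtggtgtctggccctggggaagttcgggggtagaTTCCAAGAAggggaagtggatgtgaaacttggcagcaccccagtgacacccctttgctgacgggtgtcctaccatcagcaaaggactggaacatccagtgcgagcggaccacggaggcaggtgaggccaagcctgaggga
C1qb: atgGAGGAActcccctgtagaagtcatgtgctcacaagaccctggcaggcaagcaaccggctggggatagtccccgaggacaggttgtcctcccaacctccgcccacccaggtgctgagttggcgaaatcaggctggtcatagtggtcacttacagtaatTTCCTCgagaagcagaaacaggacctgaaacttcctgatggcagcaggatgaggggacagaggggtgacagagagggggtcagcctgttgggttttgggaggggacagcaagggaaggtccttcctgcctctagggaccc
C1r: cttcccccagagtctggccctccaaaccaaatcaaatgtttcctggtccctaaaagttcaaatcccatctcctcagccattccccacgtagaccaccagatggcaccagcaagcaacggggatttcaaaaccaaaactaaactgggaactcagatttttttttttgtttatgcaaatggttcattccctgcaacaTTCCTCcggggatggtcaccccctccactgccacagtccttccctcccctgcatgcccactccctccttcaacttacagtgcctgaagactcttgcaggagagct

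C1qb held GAGGAA at 2 places, on the plus strand of the gene from -247 to -242 and on the opposite strand from -90 to -85 relative to the start. C1r held it at 1 place, on the opposite strand from -55 to -50, and C1qa had TTCNNNGAA from -90 to -82. The windows of C3 and C3ar1 held neither. GAGGAA occurred in 27.6% and TTCNNNGAA in 8.87% of all 33469 promoters of this source. These are matches of letters and say nothing of binding. Spi1, the gene of PU.1, was at 4.87 ± 0.61 in NSCPs and 9.64 ± 0.61 in SKPs.

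C3 was the most variable of these genes among SKPs. C3, whose cleavage is the step shared by all pathways, was at 5.10, 5.34 and 5.23 in NSCPs and at 8.41, 5.78 and 6.15 in SKPs. The groups did not overlap, but SKP replicate 1 lay far above the other SKP arrays, which were nearer to NSCPs. With a mean of 5.23 ± 0.12 in NSCPs and 6.78 ± 1.42 in SKPs, the difference of -1.56 (SE 0.58) did not pass (adjusted p = 0.0574, unadjusted p = 0.0260). Without SKP replicate 1 it was smaller, -0.74, and passed (SE 0.17, adjusted p = 0.0082).

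C3ar1, the receptor for C3a, which is known from myeloid cells, was lower in NSCPs. It stood at 4.55, 3.93 and 4.53 in NSCPs and at 7.08, 6.31 and 5.75 in SKPs. The arrays of the 2 kinds did not overlap. The difference was -2.05 (SE 0.32, adjusted p = 9.19e-04) with an NSCP mean within background, and against a change of 2-fold itself limma's treat gave an adjusted p of 0.0519.

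Markers of other cells were set beside these genes. Of 16 macrophage markers 15 were lower in NSCPs and 0 higher (also 0 at an unadjusted p under 0.05 with limma), 14 of them at least 4-fold, with a median difference of -4.77. Among all genes 18.6% were called lower, 25.2% higher and 4.56% at least 4-fold lower. The mean level of the macrophage markers was 5.24, 5.11 and 5.12 in NSCPs, at background, and 10.32, 9.28 and 9.51 in SKPs. Of the 16 NSCP means 11 were within background. Above it in NSCPs were Laptm5 (6.46), Cd14 (5.76), Csf1r (5.72), Cd68 (5.50) and Fcgr1a (5.49). Lyz2, which encodes lysozyme, differed by -8.80, the oxidase gene Cybb by -7.29, the Fc receptor gene Fcer1g by -6.52 and Cd53 by -6.32, and the NSCP means of these 4 were within background. The median difference of the 3 C1q genes was -0.31. C1qb (4.94 in NSCPs, 5.57 in SKPs) and C1qc (5.34 and 5.65) lay within or near background, which limits how their differences can be read. Cd163, a scavenger receptor gene of tissue macrophages, was within background in both kinds (difference 0.16, adjusted p = 0.536). Macrophage markers were thus lower in NSCPs beside C1r, C1s, Serping1 and C3ar1, while none of the C1q genes was called lower. Whether C1q follows the macrophage markers was not tested.

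**Figure D2:**
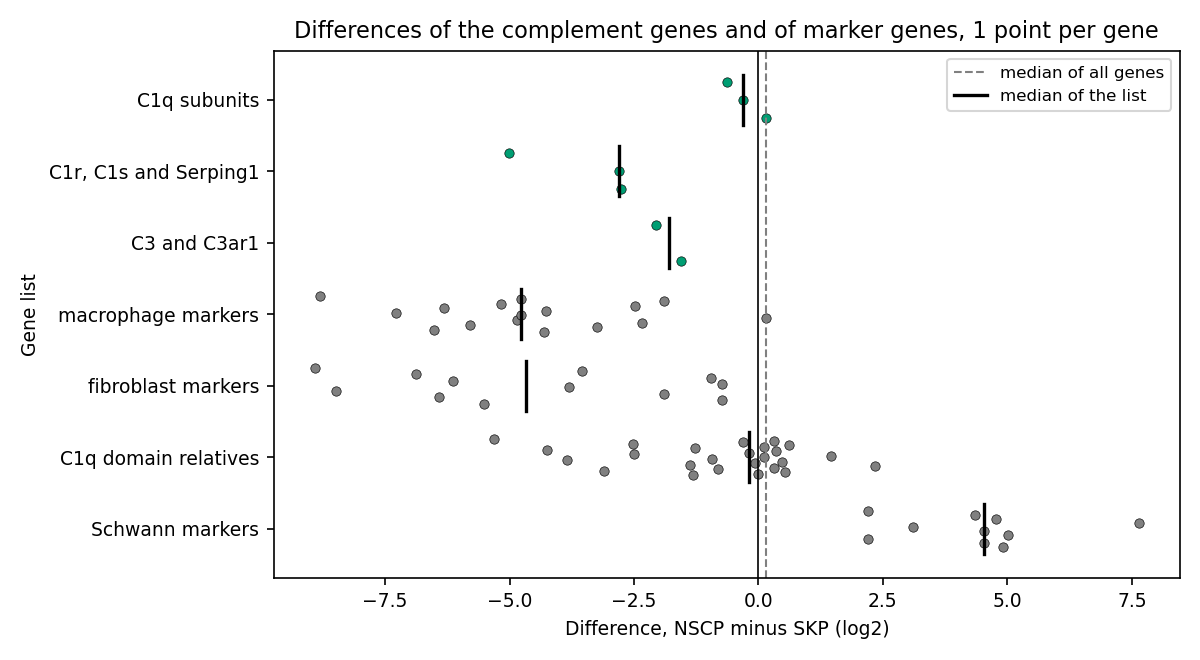
Difference NSCPs minus SKPs in log2 units (horizontal axis), 1 point per gene, for the complement genes (green) and for gene lists beside them (grey). Black bars are list medians and the dashed line is the median of all genes, 0.14. The 3 C1q genes lie close to 0, with C1qb and C1qc within or near background. Most macrophage markers lie far to the left, with a median of -4.77.

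Dermal fibroblast markers, the other list that could carry C1r and C1s, were lower in NSCPs in 12 of 12 genes, with 8 at least 4-fold lower and a median of -4.66. Lum differed by -8.91, Dcn by -8.49, Pdgfra by -6.88 and Prrx1 by -6.43. The NSCP means of Lum, Dcn and Prrx1 were within background, so these sizes rest on background values and give no order. Of the 12 NSCP means only 5 were within background. Col1a1, Col1a2 and Col3a1 differed by only -0.95, -0.74 and -1.90, with NSCP means of 11.80, 11.85 and 10.69. Adipocyte markers were lower in 7 of 7. Markers of lymphocytes, neutrophils, mast cells and endothelium had 0 lower by limma, and 1, 0, 2 and 2 higher in NSCPs among 8, 7, 6 and 5. Of those called higher, the mast cell markers Tpsab1 and Hdc and the endothelial marker Emcn were within background in both kinds. Cd3g and Tek had NSCP means above it. At an unadjusted p under 0.05 limma gave 1 lower endothelial marker and 0 lower in the other 3 lists. Keratinocyte markers had 1 lower among 5. Of all genes 18.6% were called lower and 25.2% higher. The part of macrophages, fibroblasts or adipocytes in the complement differences was not tested.

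In most of the complement genes the SKP isolates differed among themselves more than in the typical gene. SKP replicate 1 was the highest of the 3 in 8 of 8 complement genes and in 15 of 16 macrophage markers, against 3 of 12 fibroblast markers and 30.4% of all genes. Its excess over the mean of the other SKP arrays was 2.45 log2 units for C3, 1.31 for C1qb, 1.05 for C3ar1, 0.93 for Serping1, 0.66 for C1qc, 0.58 for C1s, 0.26 for C1r and 0.23 for C1qa. The same excess was 0.93 for the mean of the macrophage markers, 0.39 for adipocyte markers, 0.11 for Schwann lineage markers and 0.03 for fibroblast markers.

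The range over the SKP arrays was 2.63 log2 units for C3, larger than in 99.9% of genes, and 1.33, 1.31 and 1.19 for C3ar1, C1qb and Serping1. For C1s and C1qc it was 0.78 and 0.76, larger than in 92.1% and 91.8% of genes. For C1r and C1qa it was 0.39 and 0.29, larger than in 68.5% and 53.7% of genes, against a median range of 0.27 over all genes. The order of the other isolates was not shared: replicate 2 was the lowest for C1r, C1s, C1qc, C3 and the macrophage mean, and replicate 3 for Serping1, C3ar1 and C1qa. These isolates are 3, and their order carries no test.

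**Figure D3:**
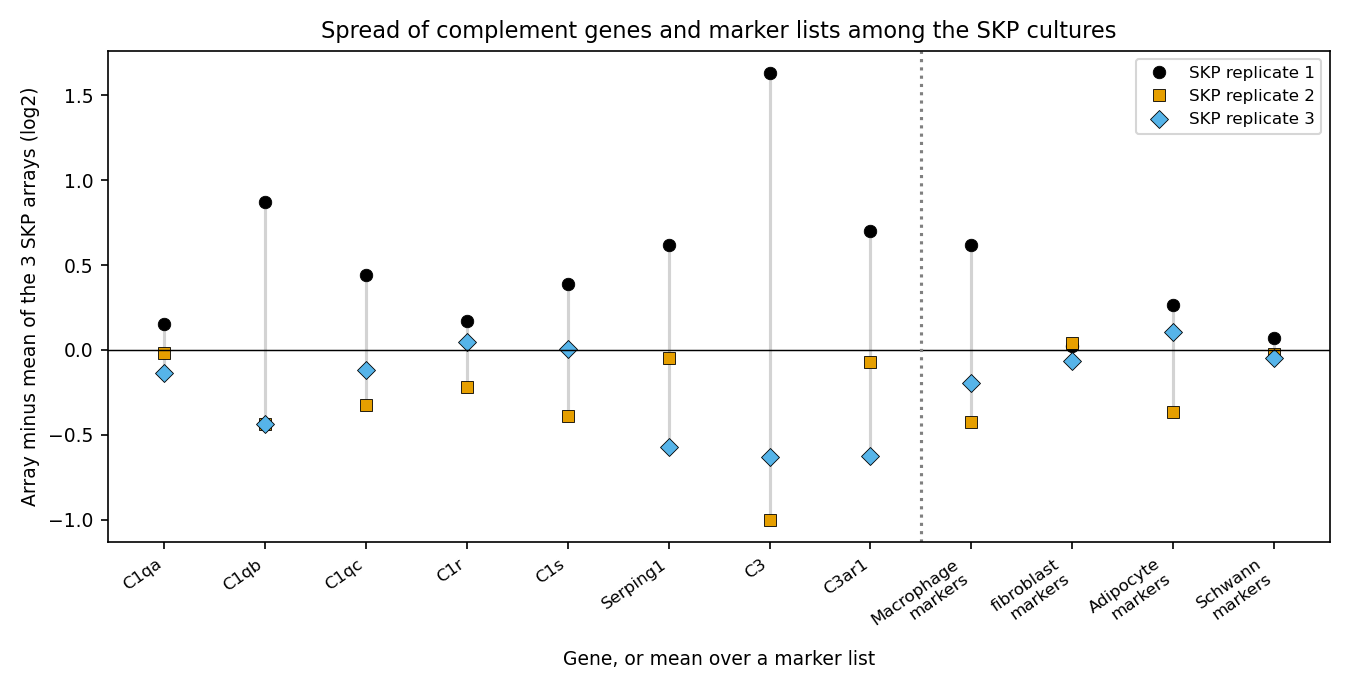
Each SKP array minus the mean of the 3 SKP arrays, in log2 units (vertical axis), for the 8 complement genes and, right of the dotted line, for means of marker lists. SKP replicate 1 lies highest for every complement gene and for the macrophage, adipocyte and Schwann markers. The range is widest in C3 (2.63), while the fibroblast markers differ little.

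The other genes of the pathway were examined by role, with 36 of 43 listed genes measured. Of these 14 were lower and 3 higher in NSCPs, against 18.6% lower and 25.2% higher of all genes, and 19 did not pass. The median difference was -0.01 against 0.14 over all genes. Within background in both kinds were 13 of the 36, among them most genes of the terminal pathway.

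Of the lectin pathway 2 of 9 were lower and 1 was higher, against 18.6% and 25.2% of all genes. Colec12, a scavenger receptor with a collectin domain, was at 4.98 ± 0.23 in NSCPs, within background, and 10.30 ± 0.08 in SKPs, a difference of -5.32. Masp1, a protease that works with the lectins, differed by -0.55, and Mbl1, a mannose-binding lectin gene, by 0.38. The gene models of Masp1 and Rtp4 overlap, as do those of Colec12 and Rbms2-ps1 and of Masp2 and Tardbp.

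All 3 measured genes of the alternative pathway were lower, against 18.6% of all genes. Cfp, which encodes properdin, the stabiliser of the C3 convertase, was 5.04-fold lower (6.38 ± 0.06 in NSCPs and 8.71 ± 0.47 in SKPs). Cfd, the gene of factor D or adipsin, was 2.73-fold lower, and Cfb, the gene of factor B, 2.06-fold lower. All of these means lay above background. The genes of C2 and C4 were not analysed here.

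In the terminal pathway, whose products form the membrane attack complex, 5 of 7 genes were within background in both kinds, and C7 and C8g were not. C7 was at 4.16 ± 0.18 in NSCPs, within background, and 10.21 ± 0.16 in SKPs, so that the difference was -6.05 (SE 0.14, adjusted p = 4.10e-08). C8g, at 7.53 ± 0.22 in NSCPs and 8.91 ± 0.17 in SKPs, differed by -1.38. C5 was called higher by 0.41 with both means within background, and C6, C8a, C8b and C9 did not pass.

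Regulators split. Clu, which encodes clusterin, a chaperone that also binds the terminal complex, was 71.4-fold lower in NSCPs (5.86 ± 0.16 against 12.02 ± 0.11 in SKPs), with both means above background. The gene models of Clu and Scara3 overlap. Cd55, which encodes a membrane protein that speeds the decay of convertases, was 1.91-fold higher in NSCPs (8.49 ± 0.14 against 7.56 ± 0.11 in SKPs). Cr1l, the rodent membrane regulator Crry, was at 9.86 ± 0.12 in NSCPs and 9.66 ± 0.30 in SKPs, a difference of 0.20 (SE 0.17) that did not pass. Cd46 differed by -0.21 (SE 0.24) and did not pass.

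Of the other receptors 5 of 7 were lower, against 18.6% of all genes. Itgb2, the common chain of the leukocyte integrins, was 15.4-fold lower, and its partners Itgam and Itgax, which form the complement receptors CR3 and CR4, differed by -2.49 and -1.82 with NSCP means within background. Cd93 (-0.61) and Vsig4 (-0.80), a macrophage receptor for C3 fragments, were also lower, Vsig4 with both means within background. Calr, the gene of calreticulin, which binds C1q, was at 12.85 ± 0.03 in NSCPs and 12.76 ± 0.05 in SKPs and did not pass (difference 0.09, SE 0.11). Of the pentraxins, which can recruit C1q, Ptx3 was lower by a difference of -1.49, and Crp and Apcs did not pass. Fcna, Colec11 and Masp2 were above background in both kinds and did not pass (-0.39, 0.05 and 0.12). Gene models also overlap for Ptx3 and Veph1, Vsig4 and Heph, Itgb2 and LOC120099012, and Cr1l and LOC108352604.

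**Figure D4:**
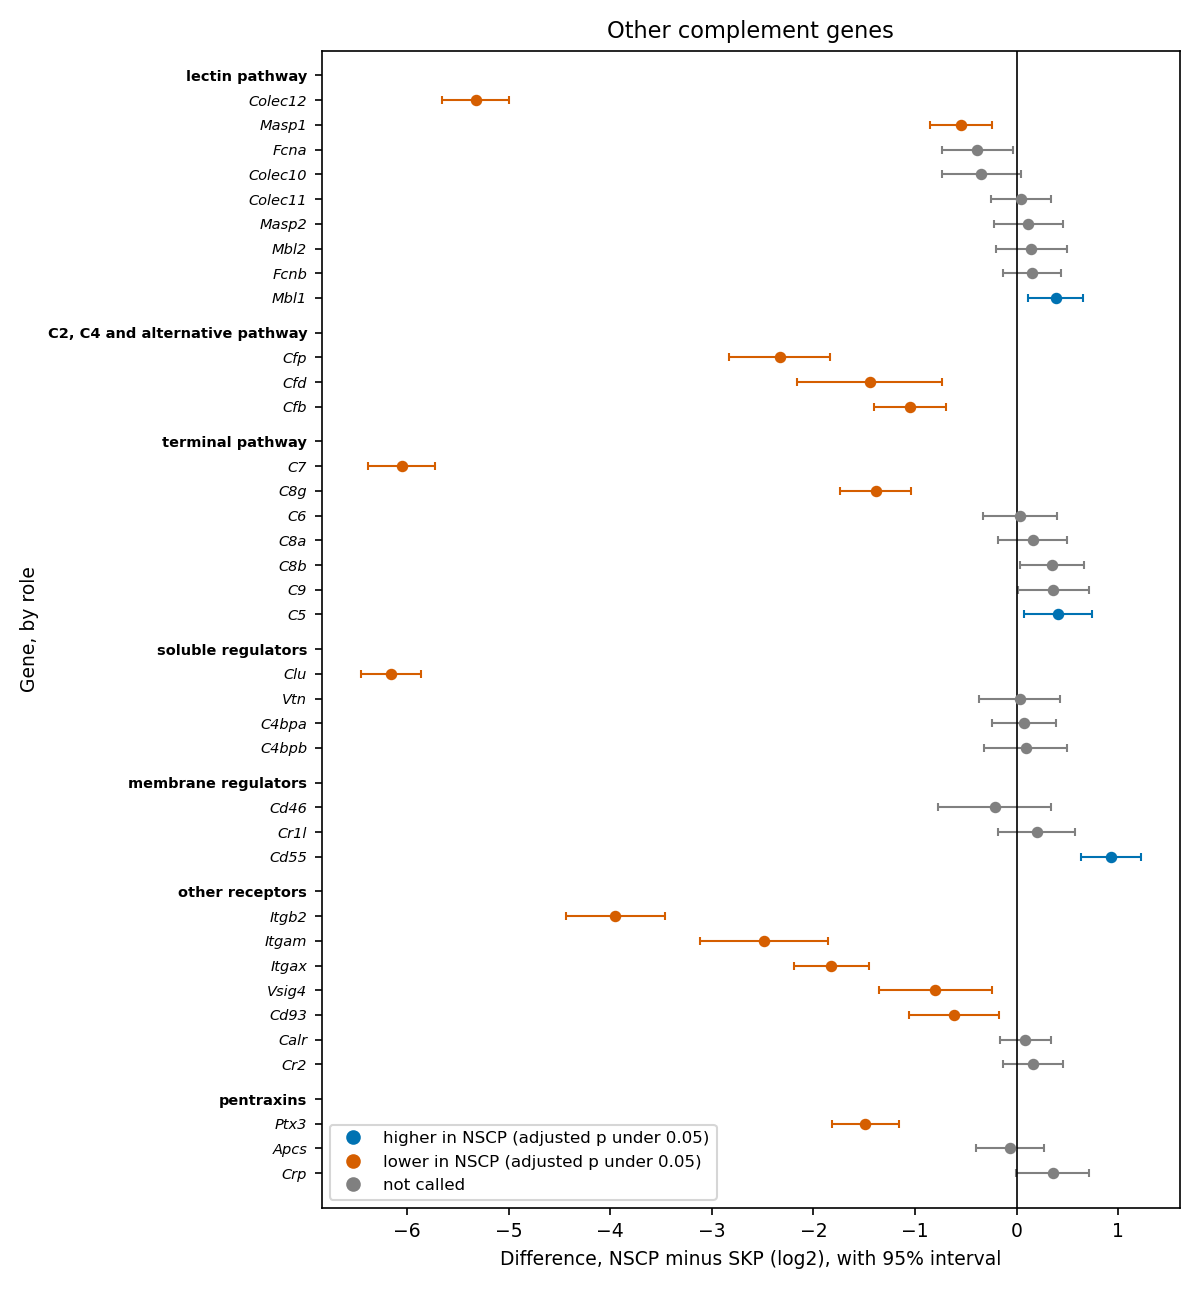
Difference NSCPs minus SKPs in log2 units with its 95% interval (horizontal axis) for 36 other complement genes, grouped by role. Blue marks genes higher and orange genes lower in NSCPs at an adjusted p under 0.05, and grey those not called. Colec12, C7, Clu and Itgb2 lie farthest to the left, and Cd55 is the gene farthest to the right (0.93).

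Relatives that share the globular head of C1q were measured as a comparison for the C1q genes. Among 25 of them 10 were lower and 5 higher in NSCPs, against 18.6% lower and 25.2% higher of all genes, and the median difference was -0.19 against 0.14 over all genes. C1ql3, a secreted protein of neurons, was 5.08-fold higher (9.99 ± 0.23 in NSCPs and 7.65 ± 0.55 in SKPs), and C1qtnf12 was 2.75-fold higher. The collagen gene Col8a1 (-5.31), the adipocyte hormone gene Adipoq (-4.25), C1qtnf6 (-3.84) and C1qtnf1 (-3.11) were lower, Col8a1 and Adipoq with NSCP means within background. The gene models of C1ql3, Pter and Rsu1 overlap.

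Genes nearest to the mean profile of 2 sets of members were sought. Nearness was the root mean square difference over the 6 arrays after each gene's own mean was subtracted. For the mean of C1r, C1s and Serping1 the nearest were Scimp (0.13 log2 units), Loxl4 (0.13), Slc7a2 (0.14), Wnt5a (0.15), Prickle1 (0.17), Plcb4 (0.18), Mmp16 (0.19) and Twist2 (0.21). The 6 arrays fall in 2 groups, so the likeness is mostly that of the difference between kinds. These nearest genes differed by -3.66 to -3.38, whereas C1r, C1s and Serping1 themselves differed by -2.80, -5.02 and -2.77. The nearest genes are thus near that mean, and likeness to a single member was not measured. For the mean of the C1q genes the nearest were Or4g7, Arrdc4, Erbb4, Nhlrc3, Lrrk1, Ifnar1, Dgkz and Tfcp2l1, at 0.06 to 0.11 log2 units. None of them was called, and Or4g7, Erbb4 and Tfcp2l1 were within background in both kinds. In total 1036 genes lay within 0.25 of the C1q profile and 22 within 0.25 of the other.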

How the data were processed

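The authors deposited a log2 value for each probe set of each array, computed with oligo and RMA (background correction, quantile normalization, summary), per the submitters' processing notes, with versions and genome build not given in the sources used here. Of 36685 probe sets, 18511 have 1 gene symbol, 575 several and 17599 none here. For genes with several the brightest was kept, leaving 18166 genes. Of the 18511 probe sets with 1 symbol 18394 had an Entrez ID found in RefSeq (GRCr8, for names, neighbours and promoters). NSCPs (n = 3) and SKPs (n = 3) were compared across all genes with limma 3.58.1 in R 4.3.3 (lmFit, eBayes, 2-sided, Benjamini-Hochberg). On simulated data with 200 of 18166 genes changed, limma recovered 4% of changes of 0.5 log2 units, 70% of changes of 1 and 96% of changes of 2. A far larger share, 43.7% of genes, was called in the real data, so these rates do not carry over to this fit. The number of arrays limits the precision, and no detection calls were used. Figures were drawn with matplotlib 3.10.9 in Python 3.11.15.

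The members, lists and motifs were chosen with earlier results of these data known. Named genes are the 8 measured members, called wider complement genes and uncalled ones above background in both groups, up to 4 markers per list by size of difference, and the 8 genes nearest to each of 2 member profiles. Other genes, such as Spi1, Cd163, further macrophage and fibroblast markers and the C1q relatives, were chosen after their values were seen. Alternatives were treat against 2-fold, an adjusted p under 0.01, array weights, a prior that is trended and robust, adjustment over all probe sets, probe sets of a gene averaged, 2 filters on dim genes, arrays centred on their median or quantile normalized again, each array left out, and a block for the replicate number.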

Additional observations from a re-analysis of the deposited data

How the results depend on the processing

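Of 132 values of the 8 measured members under 17 alternatives, 124 kept their direction and their side of the threshold, and none of the 132 changed direction. C1r, C1s and Serping1 were called lower under every alternative, with differences from -2.92 to -2.71, from -5.22 to -4.83 and from -3.08 to -2.12. With each array left out C3 ranged from -2.06 to -0.74 and its adjusted p from 0.0082 to 0.134, passing without SKP replicate 1 (-0.74) or 2 (-2.06). C3 also passed at -1.56 with the filters at background (adjusted p = 0.0455) and at the median (0.0444) and with the trended prior (0.0439), and at -1.26 with array weights, where C1qa passed at 0.37. C3ar1 ranged from -2.36 to -1.58 over the alternatives and missed the threshold with treat (-2.05). These causes were not tested.

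Members called lower numbered 4 to 5 and members called higher 0 with each array left out; with array weights 1 was higher. Wider complement genes called higher numbered 1 to 2 with each array left out, 1 over all probe sets and at an adjusted p under 0.01, 5 with array weights and 0 with treat, against 3 as reported, and treat left 8 lower. C1q relatives higher numbered 3 above the median of all probe sets, and 1 higher and 6 lower with treat. Over all genes treat called 714 higher and 1044 lower, and an adjusted p under 0.01 gave 2886 higher. With the replicate number as a block, 1 wider complement gene was higher and no member's call changed (C3 adjusted p = 0.0513). Deviations of arrays with the same number correlated at 0.03 to 0.05. Arrays with different numbers were not compared in this way, so whether the numbers pair the isolates was not tested. The number of arrays, and for low genes the background, limits what can be told.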
